A study of Mus musculus with 18 samples.

Results

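Expression in the infarcted left ventricle of 3 mice at 72 h after ligation of a coronary artery (72-h AMI) was compared with that of 3 other mice at 6 h (6-h AMI). The genes compared were those with an FPKM, the fragments mapped to a gene scaled by transcript length and library size, of at least 1 in at least 1 of these 6 mice, which held for 13047 of the 24419 symbols in the table. All mice of the study were male C57BL/6 mice, 8 weeks old, under pentobarbital anaesthesia, and the AMI mice had the proximal left anterior descending coronary artery tied. Each mouse was sampled once, so that the 2 times were different animals, and 3 control mice, 3 mice at 24 h and the earlier groups are given only as levels beside the comparison. PolyA RNA of the whole tissue was sequenced, and no cell type was sorted out. The hour of the day at which tissue was taken is not given in the sources used here.

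A heart wall that loses its blood supply first shows stress and alarm transcripts in surviving and dying cells, and neutrophils arrive within hours. Monocytes follow, become macrophages and clear the debris, while fibroblasts divide, become myofibroblasts and lay down the collagen of the scar. In whole tissue, fewer cells of a type and less RNA per cell cannot be told apart.

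The libraries differed between the times in more than single genes. The FPKM of all symbols summed to 580596 to 600467 in the 6 h mice and 542418 to 560482 in the 72 h mice, and the 10 most abundant genes held 12 to 14.4% and 6.82 to 7.99% of that sum. Symbols with at least 1 FPKM numbered 11271 to 11435 at 6 h and 12430 to 12505 at 72 h. Relative depth, estimated from the lowest FPKM against the first control mouse, was 0.927 to 1.09 at 6 h and 1.24 to 1.31 at 72 h. Read counts were not used here, and errors are those between mice. Correlations across genes between mice, on the log2 scale, ran from 0.98 to 0.989 within 6 h, from 0.99 to 0.993 within 72 h and from 0.863 to 0.894 between the times. Genes differed more between the 6 h mice, with a median SD of 0.157 against 0.113 (log2). Of the 70 genes with an SD over 1 at 6 h, the first 6 h mouse stood farthest from the group's median in 44. That mouse was also the only one of the 18 with more than a trace of 3 atrial muscle transcripts. Its FPKM were 18.7 for Myl7, 63 for Myl4 and 12.5 for Sln, against at most 0.49, 2.89 and 0.132 in the other 17 mice.

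More genes were higher than lower at 72 h. Genes were called at an adjusted p under 0.05 by limma on log2(FPKM + 1), with a ratio of mean FPKM over 2. By this rule 3481 genes (26.7% of those tested) were higher at 72 h than at 6 h and 916 (7.02%) were lower. Of these, 1002 higher genes were below 1 FPKM in all 6 h mice, and 136 lower genes in all 72 h mice. Those genes passed the filter through 1 time only and could hardly be called the other way, also within the lists below. Counts within the lists are to be read beside the shares of 26.7% and 7.02%. At any ratio, 6695 genes (51.3%) were higher and 2213 (17%) lower by adjusted p. The 72 h mice lay entirely above the 6 h mice in 3462 of the 3481 genes and entirely below them in 907 of the 916. Changes over 4-fold were called in 1482 higher and 162 lower genes, and over 16-fold in 348 and 28. With 3 mice against 3, an exact permutation test of a single gene cannot give a p below 0.1.

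The balance of the directions depended on the scaling. Over all genes the median log2 fold change was 0.35, and the rises and falls below are to be read against it. It was -0.005 with median-of-ratios scaling, which gave 2336 higher and 1742 lower genes, and -0.08 with quantile normalization, which gave 1895 and 1937. Higher genes made up 79.2% of the called genes as deposited, 57.3% with median-of-ratios scaling, 49.5% with quantile normalization and 83% with each mouse rescaled to the same sum. None of the gene lists described below changed the sign of its median under these 3 scalings.

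Levels in the control mice separated 2 kinds of fall. Of the 916 lower genes, 218 had a 6 h mean over 2 times the control mean, and 608 had a 72 h mean under 0.5 times it, with 25 in both groups and 115 in neither. Of the 3481 higher genes, 2742 had a 72 h mean over 2 times the control mean, 277 had a 6 h mean under 0.5 times it, and 611 had neither. The 24 h mean lay between the 6 h and 72 h means in 3216 of the higher and 836 of the lower genes. These counts share the 6 h and 72 h values with the call and are given as a description.

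**Figure D1:**
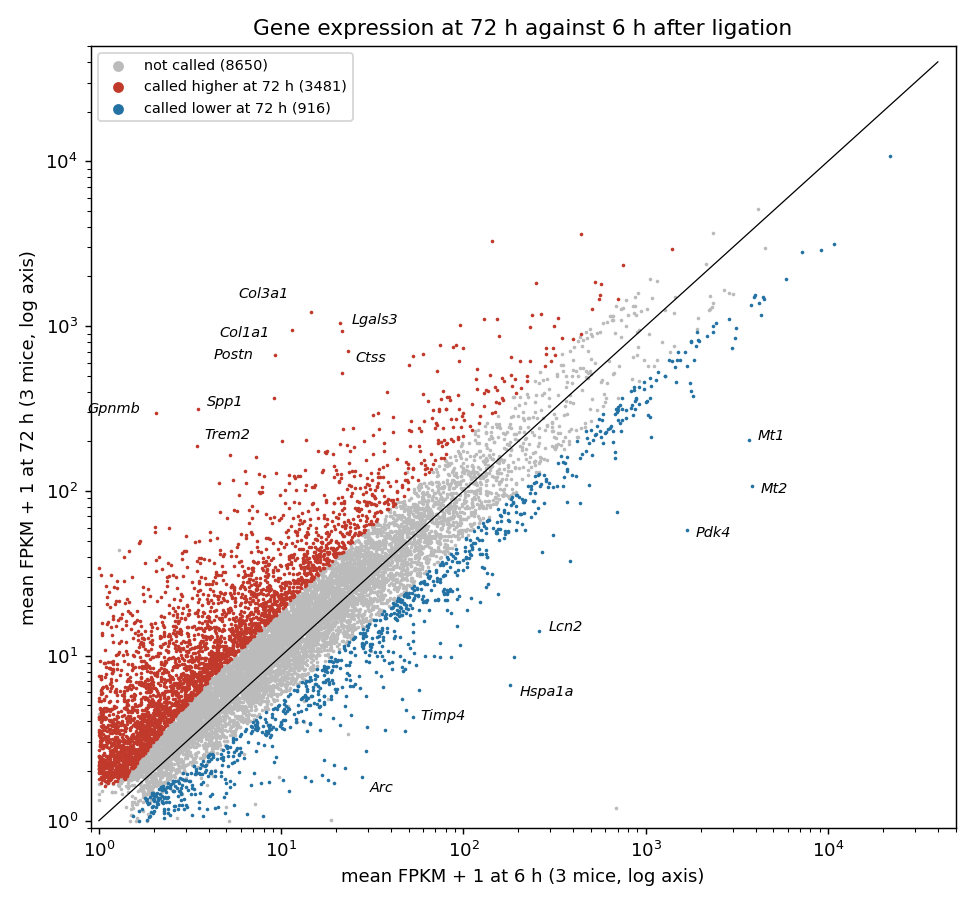
Mean FPKM + 1 of the 3 mice at 72 h (vertical, log axis) against that at 6 h (horizontal, log axis) for the 13047 genes, red where called higher, blue where called lower and grey elsewhere, with the line of equal values. The 3481 higher genes outnumber the 916 lower ones, and Mt1, Mt2 and Pdk4 lie far below the line at high 6 h levels.

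The largest rises were in genes of macrophages and of the collagen matrix. Gpnmb, a membrane glycoprotein of phagocytes that take up debris, lies on chromosome 6 from 49036546 to 49070929 (mm10). It had 0.981, 1.18 and 0.994 FPKM at 6 h and 262, 276 and 345 FPKM at 72 h (log2 fold change of 7.16 with an SE of 0.12, adjusted p = 8.68e-08). Spp1, which encodes the secreted matrix protein osteopontin, had 4.68, 0.569 and 2.23 FPKM at 6 h and 261, 335 and 339 FPKM at 72 h (log2 fold change of 6.66 with an SE of 0.40, adjusted p = 3.31e-06). The highest 6 h mouse had 8.23 times the Spp1 of the lowest, and all 3 lay far below every 72 h mouse. Trem2, a lipid-sensing receptor of macrophages, had 2.80, 2.18 and 2.43 FPKM at 6 h and 178, 162 and 216 FPKM at 72 h (log2 fold change of 5.74 with an SE of 0.13, adjusted p = 1.51e-07). Lgals3, which encodes galectin 3, had 32.6, 11.0 and 18.5 FPKM at 6 h and 901, 875 and 1005 FPKM at 72 h, and Mpeg1, a pore-forming protein of macrophages, had 12.5, 5.15 and 6.90 FPKM at 6 h and 321, 369.9 and 409 FPKM at 72 h. Their log2 fold changes were 5.54 and 5.4. Ctss, the lysosomal protease cathepsin S, went from 22.3 ± 5.91 to 707 ± 101 FPKM (mean ± SD of 3 mice, 4.95 on the log2 scale).

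The other large rises were of collagens and periostin, with 1 gene of uncertain value. Col3a1, on chromosome 1 from 45311538 to 45349706 (mm10), had 15.3, 9.81 and 15.4 FPKM at 6 h and 1045, 1399 and 1188 FPKM at 72 h (log2 fold change of 6.40 with an SE of 0.18, adjusted p = 2.67e-07). Col1a1, Col1a2 and Col5a1 had log2 fold changes of 6.38, 5.62 and 4.97. Postn, a matricellular protein of activated fibroblasts, had 11.1, 5.98 and 7.57 FPKM at 6 h and 654, 683 and 651 FPKM at 72 h (log2 fold change of 6.21 with an SE of 0.18, adjusted p = 2.67e-07). The highest 72 h mouse had 1.05 times the Postn and 1.46 times the Col1a1 of the lowest. Kctd12, a potassium channel tetramerization domain gene, was listed at 0 in all 6 h mice and at 30.4, 34.2 and 34.4 FPKM at 72 h. It was also listed at 0 in 2 control mice and at 10 FPKM in 1, so that a listed 0 may be a failed estimate for this gene, and no fold is given.

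**Figure D2:**
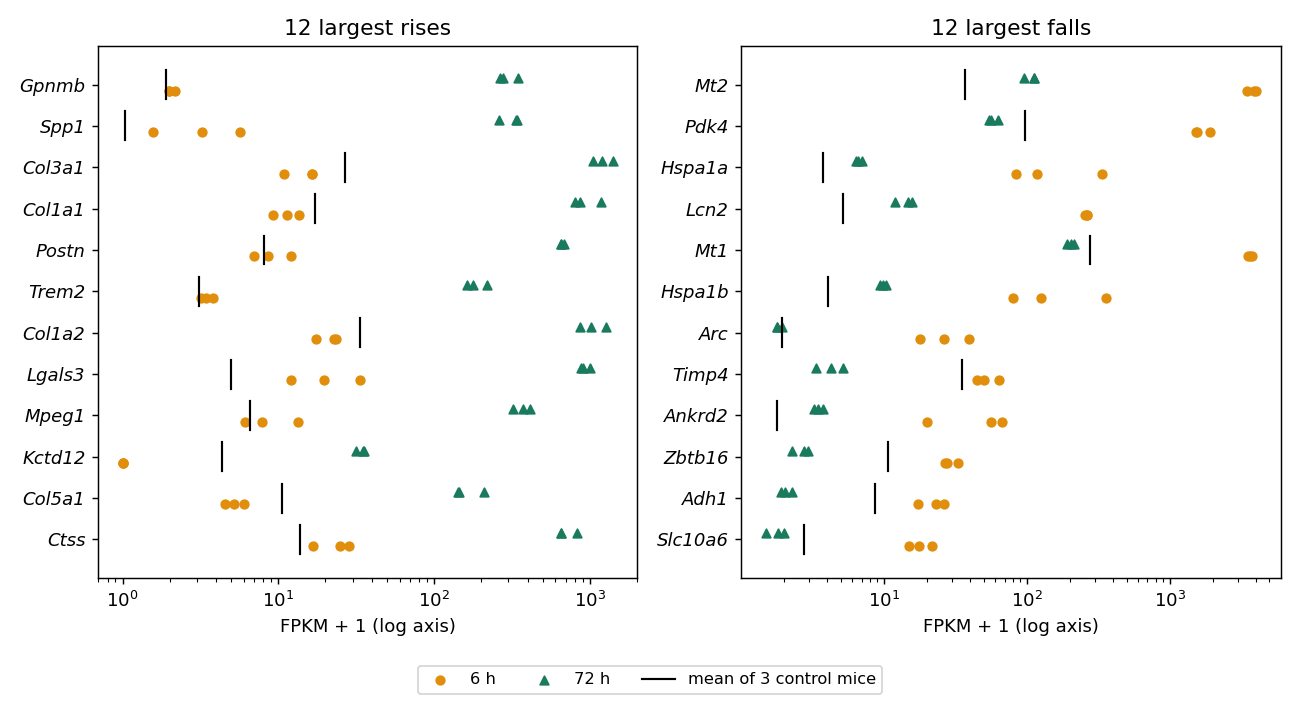
FPKM + 1 (horizontal, log axis) of each mouse for the 12 genes with the largest rises (left) and the 12 with the largest falls (right), with circles for 6 h, triangles for 72 h and a bar for the mean of 3 control mice. The 24 genes were selected for no overlap between the times, and several of the falls end near the control mean.

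The largest falls were in genes for metal binding, fuel choice and protein folding. Mt2, a metallothionein that binds zinc and copper, had 4027, 3488 and 3923 FPKM at 6 h and 112, 112 and 94.4 FPKM at 72 h (log2 fold change of -5.15 with an SE of 0.11, adjusted p = 1.51e-07). Mt1 had 3556, 3804 and 3648 FPKM at 6 h and 214, 189 and 204 FPKM at 72 h (log2 fold change of -4.17 with an SE of 0.10, adjusted p = 1.55e-07). The control mice had 35.7 ± 1.15 FPKM of Mt2 and 278 ± 10.4 of Mt1, and the 24 h mice 1157 ± 734 and 1225 ± 461 (SD, n = 3). The 6 h level of both genes thus stood far above all later levels, and the 72 h level of Mt1 was below that of the control mice. Both genes lie next to each other on chromosome 8, Mt2 from 94172664 to 94173568 and Mt1 from 94179082 to 94180327 (mm10). Metallothionein promoters carry metal response elements, to which the zinc-sensing factor MTF-1 binds. The 150 bases before each start in RefSeq on GRCm38.p6 are shown for that reason. These starts differ from the positions above, which are from GENCODE. The Mt2 stretch ends at 94172617, short of 94172664, and the Mt1 stretch ends at 94179088, past 94179082. Capitals mark matches on either strand to TGCACNC or TGCGCNC.
Mt2 (chr8:94172468-94172617, plus strand): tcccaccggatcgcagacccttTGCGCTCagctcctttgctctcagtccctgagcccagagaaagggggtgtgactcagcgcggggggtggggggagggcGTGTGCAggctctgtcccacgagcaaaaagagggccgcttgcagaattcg
Mt1 (chr8:94178939-94179088, plus strand): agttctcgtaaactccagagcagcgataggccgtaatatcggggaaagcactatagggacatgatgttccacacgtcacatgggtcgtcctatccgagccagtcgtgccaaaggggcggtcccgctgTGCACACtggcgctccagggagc
The stretch of Mt2 holds 2 such matches and that of Mt1 holds 1. Over the 300-base windows from 250 before to 50 after each start, Mt2 had 4 matches and Mt1 had 3, and 35% of the 12480 windows of 9762 tested genes had at least 1.

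Of the metallothioneins and antioxidant genes, 5 of 15 tested were lower and 2 were higher, shares of 33.3% and 13.3% beside 7.02% and 26.7% of all genes. The median log2 fold change was -0.26, and it was 0.09 without the first 6 h mouse. Besides Mt1, Mt2 and Mt3, the lower genes were Sod2, the mitochondrial superoxide dismutase (-1.27), and the zinc importer Slc39a14 (-0.96). The call of Slc39a14 was lost with each mouse rescaled to the same sum, without either the first 6 h or the first 72 h mouse. Hmox1, the heme-degrading enzyme, was 1 of the 2 higher genes, with 93.0, 64.2 and 90.3 FPKM at 6 h and 345, 355 and 416 FPKM at 72 h (log2 fold change of 2.17 with an SE of 0.16, adjusted p = 8.91e-06). Its control level was 4.61 ± 0.685 FPKM. Gpx3, a secreted glutathione peroxidase, rose from 184 ± 27.9 to 434 ± 25.1 FPKM (log2 fold change 1.24), a call lost with median-of-ratios scaling.

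Heat shock proteins help proteins fold after stress. Of the 23 tested, 7 were lower at 72 h, none was higher (1 with each mouse rescaled to the same sum), and the median was -0.34. Hspa1a had 338, 82.6 and 118 FPKM at 6 h and 6.07, 5.62 and 5.36 FPKM at 72 h (log2 fold change of -4.49 with an SE of 0.44, adjusted p = 4.4e-05). Hspa1b had 360.1, 79.1 and 126 FPKM at 6 h and 8.36, 9.30 and 8.85 FPKM at 72 h (log2 fold change of -3.97 with an SE of 0.46, adjusted p = 0.000118). The first 6 h mouse had 2.87 times the Hspa1a and 2.86 times the Hspa1b of the next highest, and the 72 h mice were nearly equal. The small heat shock protein gene Hspb1 had 4179, 3103 and 1681 FPKM at 6 h and 657, 815 and 729 FPKM at 72 h (log2 fold change -1.93), and Hspb6 had 349, 376 and 359 FPKM at 6 h and 177, 128 and 133 FPKM at 72 h (-1.31). The other lower genes were Hspb7, Cryab and Bag3, while Hspa8, Hsp90aa1 and 14 more were not called.

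Hspa1a and Hspa1b are near-identical copies on chromosome 17, at 34969190 to 34972156 and 34956436 to 34959238 on the minus strand (mm10), so that their reads may be split between them. The 150 bases before their starts, from RefSeq on GRCm38.p6, are shown because both carry the binding motif of heat shock factors in the same place. Capitals mark matches to GAANNTTC or TTCNNGAA, a pair of inverted repeat units of the heat shock element.
Hspa1a (chr17:34972157-34972306, minus strand): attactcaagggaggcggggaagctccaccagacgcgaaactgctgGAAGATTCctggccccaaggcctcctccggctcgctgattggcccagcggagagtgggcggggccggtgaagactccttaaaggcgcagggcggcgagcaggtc
Hspa1b (chr17:34959239-34959388, minus strand): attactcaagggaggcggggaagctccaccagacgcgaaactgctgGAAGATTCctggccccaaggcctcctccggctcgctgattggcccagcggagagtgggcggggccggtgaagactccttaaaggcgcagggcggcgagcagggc
These stretches were identical at 149 of 150 bases and held 1 match each. In the 300-base windows, the motif was in 13 of 26 windows of 19 heat shock genes, in 5 of 7 windows of the lower ones, and in 11.8% of all windows of tested genes.

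Immediate early genes, transcription factors and feedback regulators that cells switch on without new protein synthesis, were lower rather than higher at 72 h where called, with 1 exception. Of 27 tested, 15 were lower and 1 higher, with a median of -1.02. The lower count was 10 without the first 6 h mouse and 12 to 17 without any other single mouse. It was 13 with each mouse rescaled to the same sum, 18 with quantile normalization and 22 with median-of-ratios scaling. Fosb had 32.9, 9.04 and 6.80 FPKM at 6 h and 1.35, 1.80 and 0.888 FPKM at 72 h (log2 fold change of -2.58 with an SE of 0.48, adjusted p = 0.00166), and Egr1 had 141, 59.3 and 52.1 FPKM at 6 h and 19.0, 17.1 and 15.9 FPKM at 72 h (log2 fold change of -2.07 with an SE of 0.33, adjusted p = 0.000653). Maff and Ier3 fell by 1.92 and 1.81 on the log2 scale. Arc, which is not in the list but among the 12 largest falls and is known as an activity-regulated gene of neurons, had 38.2, 25.4 and 16.9 FPKM at 6 h and 0.927, 0.794 and 0.780 FPKM at 72 h (log2 fold change of -3.85 with an SE of 0.25, adjusted p = 4.94e-06). The first 6 h mouse had the highest FPKM of each of these 5 genes. The summed FPKM of the 27 genes was 1089 to 2145 at 6 h, 682 to 767 at 72 h and 357 to 469 in the control mice, so that the 72 h level was not down to that of the control mice. Egr2 was the 1 higher gene, with 4.79, 2.98 and 2.79 FPKM at 6 h and 8.16, 7.63 and 5.66 FPKM at 72 h (log2 fold change of 0.86 with an SE of 0.19, adjusted p = 0.00396). Its call was lost with median-of-ratios scaling, with quantile normalization and without any of 4 single mice, the second or the third at 6 h and the first or the second at 72 h. AP-1 is the dimer of Fos and Jun proteins, and its motif TGANTCA was in 1 of 29 windows of 22 of these genes and in 5.38% of all windows.

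Genes known to respond to glucocorticoids, the adrenal stress hormones, fell as a group. Of 18 tested, 14 were lower and none higher (median -1.51). Pdk4, the kinase that shuts off pyruvate dehydrogenase when fat is burned, lies on chromosome 6 from 5483351 to 5496309 (mm10). It had 1567, 1921 and 1531 FPKM at 6 h and 61.5, 53.8 and 55.3 FPKM at 72 h (log2 fold change of -4.85 with an SE of 0.12, adjusted p = 1.83e-07). Lcn2, an iron-siderophore-binding lipocalin that neutrophils and stressed tissue make, had 264, 255 and 262 FPKM at 6 h and 14.7, 13.7 and 10.9 FPKM at 72 h (log2 fold change of -4.22 with an SE of 0.12, adjusted p = 2.62e-07). Both genes differed little among the 6 h mice, unlike the immediate early genes. Zbtb16 went from 28.1 ± 3.34 to 1.66 ± 0.342 FPKM and Map3k6 from 73.5 ± 8.79 to 11.0 ± 0.504 FPKM (log2 fold changes -3.45 and -2.63). Summed over the list, FPKM was 2675 to 3073 at 6 h, 421 to 449 at 72 h and 445 to 533 in the control mice. Lcn2 still had 264 ± 173 FPKM at 24 h, and Pdk4 had 269 ± 185. Of the other 12 largest falls, Adh1, an alcohol dehydrogenase, went from 21.3 ± 4.48 to 1.08 ± 0.190 FPKM (log2 fold change -3.41) and the sulfated steroid transporter Slc10a6 from 17.1 ± 3.32 to 0.773 ± 0.258 (-3.35).

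Clock genes, the feedback loop that keeps daily time in cells, were lower in 11 of 18 and higher in 2, with a median of -1.34. Per2, a repressor of the loop, had 13.4, 13.2 and 10.9 FPKM at 6 h and 0.834, 0.614 and 1.06 FPKM at 72 h (log2 fold change of -2.88 with an SE of 0.13, adjusted p = 9.7e-07). Dbp, Cry2 and Ciart fell by 2.46, 2.07 and 2.05 on the log2 scale. The 2 higher genes were Arntl, the activator that Per and Cry proteins repress, with 2.43, 1.87 and 1.36 FPKM at 6 h and 10.8, 10.3 and 9.20 FPKM at 72 h (log2 fold change of 1.96 with an SE of 0.15, adjusted p = 1.2e-05), and its partner Npas2 (0.73, not called with median-of-ratios scaling or quantile normalization). Repressors and activator thus moved in opposite directions. Since the hour of sampling is not known, it and the time after ligation cannot be told apart here.

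**Figure D3:**
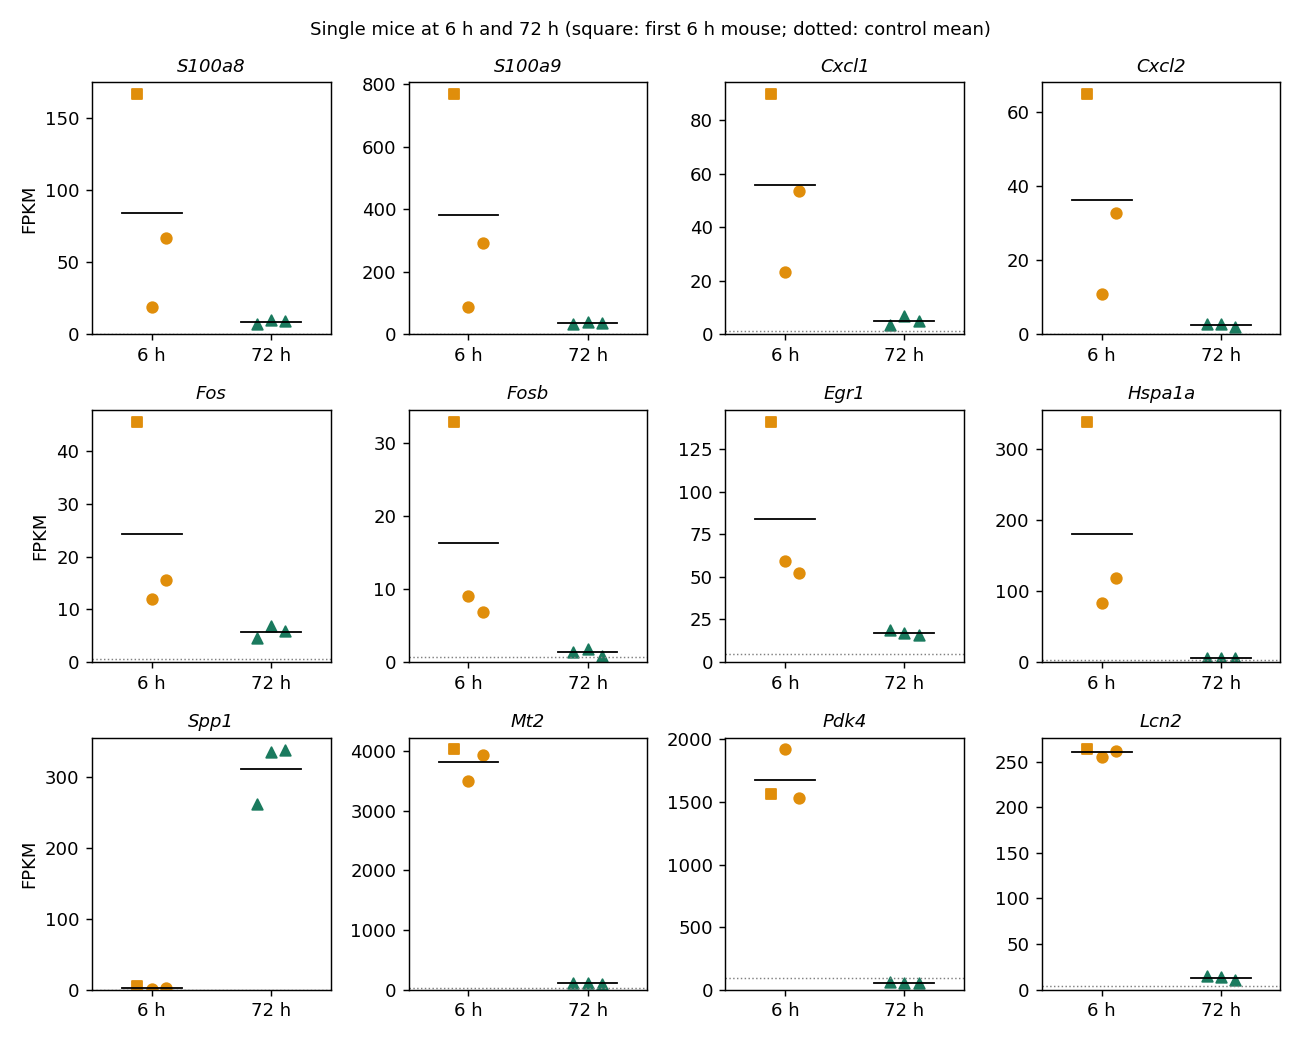
FPKM of single mice (vertical, from 0) at 6 h and 72 h for 12 genes, with a square for the first 6 h mouse, a bar for the mean of 3 mice and a dotted line for the control mean. The first 6 h mouse is highest in S100a8, S100a9, Cxcl1, Cxcl2, Fos, Fosb, Egr1 and Hspa1a, while the 6 h mice lie close together in Mt2 and Lcn2.

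Neutrophil markers scattered widely at 6 h, and some were lower at 72 h. Of 18 tested, 8 were lower and 2 higher (median -0.58), and Camp, Ltf, Elane and Mpo, which encode granule proteins, did not reach 1 FPKM in any of the 6 mice. S100a9, a calcium-binding alarmin of neutrophils, had 768, 86.5 and 292 FPKM at 6 h and 32.9, 38.5 and 38.0 FPKM at 72 h (log2 fold change of -2.85 with an SE of 0.64, adjusted p = 0.00448), and its partner S100a8 had 167, 19.2 and 66.7 FPKM at 6 h and 7.37, 9.82 and 9.37 FPKM at 72 h (log2 fold change of -2.65 with an SE of 0.63, adjusted p = 0.00591). Retnlg and Hdc fell by 2.29 and 2.23 on the log2 scale. The first 6 h mouse had 8.88 times the S100a9 of the second, which still had 2.25 times that of the highest 72 h mouse. Summed over the list, FPKM was 149 to 1177 at 6 h, 92.1 to 111 at 72 h, 60.9 to 1212 at 24 h and 5.58 to 7.6 in the control mice. Mmp9, a gelatinase of several leukocytes, went from 2.57 ± 1.5 to 6.94 ± 1.72 FPKM (1.22). Clec4d, a lectin receptor of myeloid cells, went from 7.17 ± 5.39 to 17.6 ± 3.09 (1.40), a call lost under median-of-ratios scaling, under quantile normalization and without the second or the third 6 h or the third 72 h mouse. Without the first 6 h mouse, 4 were higher. Without the second or the third 6 h mouse, or the third 72 h mouse, 1 was higher, and without any 1 of the 72 h mice 5 were lower. With quantile normalization 13 were lower and none higher.

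Inflammatory cytokines and CXC chemokines were lower in 8 of 24 and higher in 6, shares of 33.3% and 25% beside 7.02% and 26.7% of all genes. The higher share was thus near that of all genes. With median-of-ratios scaling 10 were lower and 4 higher, and with quantile normalization 12 and 4. The 8 lower ones included the neutrophil-attracting chemokines. Cxcl1 had 89.9, 23.5 and 53.7 FPKM at 6 h and 3.55, 7.04 and 5.02 FPKM at 72 h (log2 fold change of -3.04 with an SE of 0.43, adjusted p = 0.000363), and Cxcl2 had 64.9, 10.8 and 32.9 FPKM at 6 h and 2.79, 2.88 and 1.93 FPKM at 72 h (log2 fold change of -3.09 with an SE of 0.52, adjusted p = 0.000965). Cxcl3 and Cxcl5 fell by 2.85 and 2.07 on the log2 scale, and the cytokines Il6, Osm, Csf2 and Csf3 were the other lower genes. Il6 went from 8.40 ± 6.14 to 1.43 ± 0.446 FPKM (-1.67), a call lost without a filter on low FPKM, without the third 6 h mouse and without the first 72 h mouse. The 6 higher genes were Cxcl16, Cxcl10, Il18, Tgfb3, Tgfb1 and Tnf. Il18 and Tnf were below 1 FPKM in every 6 h mouse and could hardly be called lower. Tnf had 0.438, 0.223 and 0.384 FPKM at 6 h and 0.773, 1.41 and 0.735 FPKM at 72 h. Likewise, Osm, Csf2 and Csf3 were below 1 FPKM in every 72 h mouse and could hardly be called higher. Cxcl16, a membrane-bound chemokine and scavenger receptor, had 15.8, 12.5 and 16.5 FPKM at 6 h and 167, 149.8 and 201 FPKM at 72 h (log2 fold change of 3.45 with an SE of 0.15, adjusted p = 7.53e-07). Tgfb3, a growth factor that drives matrix synthesis, had 3.67, 3.04 and 3.31 FPKM at 6 h and 26.5, 28.3 and 31.8 FPKM at 72 h (log2 fold change of 2.78 with an SE of 0.11, adjusted p = 5.82e-07). Cxcl10, induced by interferons, went from 1.18 ± 0.697 to 11.9 ± 1.95 FPKM (2.62). The median of the list was -0.13, and it was 0.08 without the first 6 h mouse and 0.02 where genes had to reach a mean of 1 FPKM. Il1b had 49.4, 8.34 and 32.0 FPKM at 6 h and 7.12, 12.4 and 9.72 FPKM at 72 h and was not called (log2 fold change -1.25, adjusted p = 0.0699). It was called lower under quantile normalization or median-of-ratios scaling, and when the second 6 h mouse was left out.

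Among CC chemokines and their receptors, which guide monocytes, 10 of 20 were higher and 1 was lower (median 0.85). Ccl8 had 0.930, 0.347 and 0.787 FPKM at 6 h and 56.2, 37.5 and 52.7 FPKM at 72 h (log2 fold change of 4.88 with an SE of 0.19, adjusted p = 5.27e-07). Ccr2, the receptor by which monocytes enter injured tissue, had 3.22, 1.73 and 2.94 FPKM at 6 h and 34.8, 45.1 and 35.4 FPKM at 72 h (log2 fold change of 3.46 with an SE of 0.18, adjusted p = 1.83e-06), and Cx3cr1 had 0.195, 0.164 and 0.214 FPKM at 6 h and 9.80, 11.7 and 11.7 FPKM at 72 h (log2 fold change of 3.34 with an SE of 0.11, adjusted p = 3.05e-07). Ccl2 and Ccl7, ligands of Ccr2, had 87.4, 48.2 and 63.3 and 47.2, 31.7 and 43.4 FPKM at 6 h and 82.0, 169 and 76.9 and 48.8, 114 and 58.9 at 72 h, and neither was called. The second 72 h mouse had the highest FPKM of both, and without the first 72 h mouse Ccl7 was called higher. Ccl12, also a ligand of Ccr2 in mice, had 10.2, 12.8 and 9.66 FPKM at 6 h and 35.9, 44.3 and 30.6 FPKM at 72 h and was higher (log2 fold change of 1.67 with an SE of 0.16, adjusted p = 3.56e-05). Ccl11, an attractant of eosinophils, was the 1 lower gene, with 8.61, 5.69 and 10.0 FPKM at 6 h and 1.21, 1.15 and 1.45 FPKM at 72 h (log2 fold change of -1.98 with an SE of 0.18, adjusted p = 3.31e-05). With the second 72 h mouse left out 2 were lower. With median-of-ratios scaling or quantile normalization 7 were higher and 3 lower.

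Macrophage markers rose in 19 of 20, with a median log2 fold change of 3.27, against 26.7% of all genes. Lyz2, which encodes lysozyme, had 169, 100.5 and 158 FPKM at 6 h and 3100.4, 2873 and 3902 FPKM at 72 h (log2 fold change of 4.54 with an SE of 0.21, adjusted p = 1e-06). Cd68, a lysosomal marker of macrophages, had 11.6, 6.91 and 8.67 FPKM at 6 h and 196, 189 and 213 FPKM at 72 h (log2 fold change of 4.34 with an SE of 0.16, adjusted p = 4.87e-07), and Ms4a7 had 0.792, 0.184 and 0.402 FPKM at 6 h and 40.7, 35.7 and 50.9 FPKM at 72 h (log2 fold change of 4.90 with an SE of 0.18, adjusted p = 4.58e-07). C1qa, a chain of the first complement component, went from 73.5 ± 6.61 to 769 ± 113 FPKM (3.36). The 20 genes summed to 739 to 1004 FPKM at 6 h and 7644 to 10120 FPKM at 72 h, against 647 to 732 in the control mice and 1373 to 1937 at 24 h. The sum of every 6 h mouse was thus above that of every control mouse, but by far less than the sums at 72 h were. Cd14, the endotoxin co-receptor, was not called, with 109.7, 15.8 and 34.8 FPKM at 6 h and 39.2, 40.2 and 39.2 FPKM at 72 h.

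Markers of infiltrating monocytes were higher in 10 of 14 and lower in none (median 2.23). Fcgr1, a high-affinity receptor for antibodies, had 4.97, 3.38 and 3.69 FPKM at 6 h and 67.3, 63.0 and 71.1 FPKM at 72 h (log2 fold change of 3.77 with an SE of 0.13, adjusted p = 3.52e-07). Arg1, which consumes arginine, had 5.61, 0.685 and 4.01 FPKM at 6 h and 43.0, 56.0 and 52.7 FPKM at 72 h (log2 fold change of 3.75 with an SE of 0.44, adjusted p = 0.000124), and its mean was highest at 24 h, at 119 ± 136 FPKM. Ms4a4c rose by a log2 fold change of 3.02. Ly6c2, a surface marker of inflammatory monocytes, had 4.54, 2.88 and 3.24 FPKM at 6 h and 5.51, 6.07 and 5.34 FPKM at 72 h, a difference under 2-fold that was not called. Genes of resident macrophages were higher in 6 of 10 and lower in 1 (median 0.80), shares of 60% and 10% beside 26.7% and 7.02% of all genes. Maf, Igf1, Folr2 and Cbr2 had log2 fold changes of 2.83, 2.68, 2.44 and 1.70. Cd163 and Timd4 were not called. Cd163 had 7.39, 7.95 and 10.2 FPKM at 6 h and 7.93, 3.88 and 4.55 FPKM at 72 h. Timd4 had 0.764, 0.530 and 1.63 FPKM at 6 h and 2.21, 0.964 and 1.36 FPKM at 72 h. At both times it was below the control mice, which had 3.35, 3.09 and 2.64 FPKM. Folr2 had 5.84, 6.04 and 9.79 FPKM at 6 h and 54.9, 37.7 and 37.4 FPKM at 72 h, and its control level was 11.2 ± 0.471. Lyve1, which lymphatic vessels share with resident macrophages, had 49.5, 41.2 and 55.3 FPKM at 6 h and 25.7, 12.9 and 15.9 FPKM at 72 h and was lower (log2 fold change of -1.42 with an SE of 0.23, adjusted p = 0.000734). Without the first 72 h mouse 2 were lower, and under median-of-ratios scaling or quantile normalization 4 were higher and 2 lower.

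Genes of lipid-laden and scar macrophages were higher in 15 of 20 and lower in 2, with Gpnmb, Spp1, Trem2 and Lgals3 as the largest rises (median 2.37). The 2 lower genes were Cd36 and Lpl, which move fatty acids into heart muscle as well as into macrophages. Cd36 had 526, 594 and 579.8 FPKM at 6 h and 217, 226 and 194 FPKM at 72 h (log2 fold change of -1.41 with an SE of 0.10, adjusted p = 9.73e-06), and Lpl had 406, 476 and 359.9 FPKM at 6 h and 131, 114 and 119 FPKM at 72 h (log2 fold change of -1.75 with an SE of 0.12, adjusted p = 8.03e-06). Both were lower at 72 h than in the control mice, which had 401 ± 17.0 and 367 ± 15.1 FPKM.

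MHC class II genes, which present antigen to helper T cells, were higher in all 10 tested (median 2.27). H2-Ab1 had 46.2, 37.2 and 36.9 FPKM at 6 h and 298, 248 and 290.0 FPKM at 72 h (log2 fold change of 2.77 with an SE of 0.12, adjusted p = 9.11e-07), and H2-Aa had 25.1, 19.6 and 23.0 FPKM at 6 h and 149, 131 and 160.5 FPKM at 72 h (log2 fold change of 2.65 with an SE of 0.12, adjusted p = 1.08e-06). H2-DMa and H2-DMb1, which load the peptides, had log2 fold changes of 2.72 and 2.67. At 6 h the summed level of the list, 145 to 178 FPKM, was below that of the control mice, 213 to 236, and at 72 h it was 799 to 949. Lymphocyte markers were sparse. Only 5 of 17 lymphocyte genes reached 1 FPKM in any of the 6 mice, and Cd3e, Cd3d, Cd3g, Cd8a and Ms4a1, defining markers of T and B cells, did not. Of these 5, 4 were higher (median 0.98), of which Cd4, also found on macrophages, went from 0.224 ± 0.0511 to 1.72 ± 0.168 FPKM (1.15). The other higher genes were Cd79b, Lck and Gzma, with log2 fold changes of 1.11, 0.98 and 0.84, and these 3 calls were lost with quantile normalization. Cd4 and Gzma were below 1 FPKM in every 6 h mouse and passed the filter only through the 72 h mice.

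Interferon-stimulated genes rose in 21 of 22 (median 1.97), against 26.7% of all genes. Oas1a, a sensor of double-stranded RNA, had 3.64, 2.05 and 1.86 FPKM at 6 h and 26.1, 23.1 and 22.2 FPKM at 72 h (log2 fold change of 2.85 with an SE of 0.18, adjusted p = 4.94e-06). Isg15, a ubiquitin-like modifier, had 6.23, 3.34 and 3.54 FPKM at 6 h and 28.4, 24.1 and 25.3 FPKM at 72 h (log2 fold change of 2.36 with an SE of 0.19, adjusted p = 1.72e-05). Bst2 and Ifit3 had log2 fold changes of 2.43 and 2.25. The list summed to 98.9 to 139.6 FPKM at 6 h, 517 to 599 at 72 h and 139.7 to 166 in the control mice. Pyroptosis genes, which act in the lytic death of cells through inflammasomes, were higher in 12 of 16 and lower in none (median 1.32). The study names several genes of the list for these samples, such as Casp1, Il1b and Il18, so its direction is not independent evidence. Casp1, the protease that matures interleukin 1, had 1.55, 1.60 and 1.61 FPKM at 6 h and 13.3, 12.3 and 14.5 FPKM at 72 h (log2 fold change of 2.47 with an SE of 0.10, adjusted p = 6.68e-07). Pycard, the adaptor between sensor and protease, had 4.24, 4.60 and 6.29 FPKM at 6 h and 25, 25.2 and 26.9 FPKM at 72 h (log2 fold change of 2.16 with an SE of 0.14, adjusted p = 4.45e-06). Il18 and Aim2 had log2 fold changes of 1.68 and 1.58, from levels of 0.175 ± 0.158 and 0.517 ± 0.0205 FPKM at 6 h. The sensor Nlrp3 had 4.70, 0.866 and 1.51 FPKM at 6 h and 1.99, 2.51 and 2.44 FPKM at 72 h, and Casp4 had 9.39, 5.12 and 7.66 FPKM at 6 h and 9.62, 10.5 and 9.43 FPKM at 72 h. Neither was called, like Il1b and Dhx9. With Il1b called lower, 1 of 16 was lower without the second 6 h mouse.

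The macrophage sum given above moved with these immune lists, and its part in them was not tested.

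**Figure D4:**
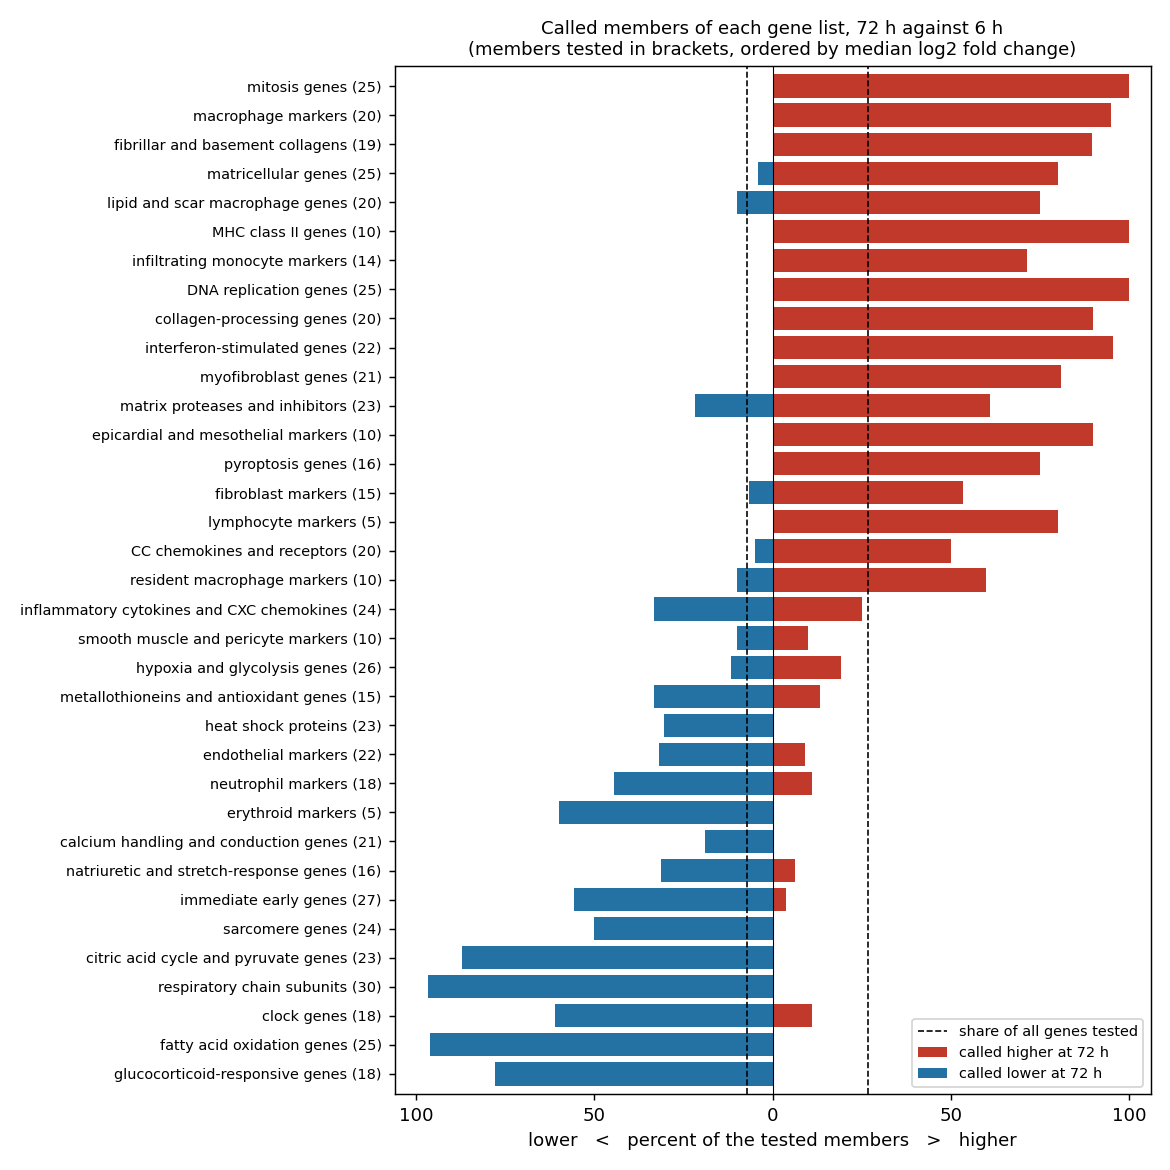
Share of the tested members of each of 35 gene lists (percent, horizontal) called higher at 72 h (red, to the right) or lower (blue, to the left), ordered by the median log2 fold change, with dashed lines at the shares of all genes tested, 26.7% and 7.02%. All members of the mitosis, MHC class II and DNA replication lists are higher, and the glucocorticoid, fatty acid oxidation and clock lists have the lowest medians.

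The collagens of the scar rose together. Of 19 tested collagen genes 17 were higher and none lower (median 3.25). Besides the fibrillar genes above, Col5a1 had 4.98, 3.54 and 4.17 FPKM at 6 h and 140.5, 207 and 144 FPKM at 72 h (log2 fold change of 4.97 with an SE of 0.17, adjusted p = 3.52e-07). The summed FPKM of the collagens was 326 to 447 at 6 h, 3882 to 5486 at 72 h, 463 to 660 at 24 h and 243 to 330 in the control mice. Col4a1 and Col4a2, the chains of basement membrane that vessels and muscle cells rest on, were not called. They had 198, 143 and 129.6 and 116, 97.6 and 86.6 FPKM at 6 h and 207, 309 and 199 and 115, 169 and 105 at 72 h. The enzymes that fold and crosslink collagen were higher in 18 of 20 and lower in none (median 2.09). P4ha3, a prolyl hydroxylase subunit, had 0.223, 0.101 and 0.0634 FPKM at 6 h and 20.3, 25.2 and 24.8 FPKM at 72 h (log2 fold change of 4.43 with an SE of 0.12, adjusted p = 2.58e-07). Lox, which crosslinks collagen and elastin, had 13.8, 11.5 and 12 FPKM at 6 h and 118, 157 and 124 FPKM at 72 h (log2 fold change of 3.31 with an SE of 0.13, adjusted p = 5.67e-07), and Loxl2 and Loxl3 had log2 fold changes of 3.81 and 3.84. The lowest 6 h mouse already had 6.42 times the control mean of Lox, which was 1.79 ± 0.447 FPKM.

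Matricellular genes, which encode secreted proteins that tune how cells hold the matrix, were higher in 20 of 25 and lower in 1 (median 2.73). Cthrc1, a secreted protein of activated fibroblasts, had 0.0330, 0.0196 and 0.0374 FPKM at 6 h and 27.3, 32.0 and 30.8 FPKM at 72 h (log2 fold change of 4.91 with an SE of 0.10, adjusted p = 1.33e-07), and Ltbp2 had 0.896, 0.495 and 0.593 FPKM at 6 h and 43.5, 59.1 and 39.7 FPKM at 72 h (log2 fold change of 4.85 with an SE of 0.16, adjusted p = 3.52e-07). Fn1, fibronectin, went from 20.7 ± 7.49 to 517 ± 128 FPKM (4.61). Cyr61, an early target of growth factor and stretch signals, was the 1 lower gene, with 271, 175 and 87.0 FPKM at 6 h and 55.0, 75.5 and 63.4 FPKM at 72 h (log2 fold change of -1.31 with an SE of 0.35, adjusted p = 0.0108). Among matrix proteases and their inhibitors 14 of 23 were higher and 5 lower (median 1.37). Mmp12, the macrophage elastase, had 0.259, 0.0641 and 0.522 FPKM at 6 h and 19.0, 23.3 and 19.4 FPKM at 72 h (log2 fold change of 4.08 with an SE of 0.15, adjusted p = 4.58e-07), and Mmp14, which activates other proteases at the cell surface, had 14.5, 11.0 and 9.50 FPKM at 6 h and 102, 137 and 129 FPKM at 72 h (log2 fold change of 3.29 with an SE of 0.17, adjusted p = 1.66e-06). Adam12 and Mmp23 rose by log2 fold changes of 3.79 and 2.96. The 5 lower genes included 2 inhibitors of matrix metalloproteinases. Timp4 had 44.0, 62.6 and 49.6 FPKM at 6 h and 4.17, 2.38 and 3.28 FPKM at 72 h (log2 fold change of -3.64 with an SE of 0.18, adjusted p = 1.51e-06), and Timp3 had 531, 457 and 468 FPKM at 6 h and 111, 118 and 94.8 FPKM at 72 h (log2 fold change of -2.16 with an SE of 0.12, adjusted p = 2.03e-06). Both ended below their control levels of 34.5 ± 5.01 and 303 ± 26.8 FPKM. Adamts1 (-2.19) and the urokinase receptor Plaur were also lower.

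Fibroblast markers were higher in 8 of 15 and lower in 1 (median 1.03). Thy1 had 1.64, 1.99 and 2.23 FPKM at 6 h and 14.9, 16.9 and 15.8 FPKM at 72 h (log2 fold change of 2.52 with an SE of 0.11, adjusted p = 9.11e-07), and Mfap5, a microfibril protein, had 25.4, 18.8 and 23.6 FPKM at 6 h and 145, 129 and 112 FPKM at 72 h (log2 fold change of 2.46 with an SE of 0.14, adjusted p = 2.76e-06). Gsn, an actin-severing protein that fibroblasts express strongly, was the 1 lower gene, with 277, 236 and 234 FPKM at 6 h and 153, 82.7 and 101 FPKM at 72 h (log2 fold change of -1.19 with an SE of 0.21, adjusted p = 0.00112), and its call was lost without the second 72 h mouse. Myofibroblast genes were higher in 17 of 21 and lower in none (median 1.92). Acta2, smooth muscle actin, went from 57.5 ± 15.7 to 232 ± 35.4 FPKM (2.01). S100a4 had 12.5, 5.71 and 12 FPKM at 6 h and 102, 126 and 107 FPKM at 72 h (log2 fold change of 3.41 with an SE of 0.25, adjusted p = 1.02e-05). Meox1, a transcription factor of activated fibroblasts, had 7.16, 5.99 and 6.27 FPKM at 6 h and 43.9, 44.6 and 37.5 FPKM at 72 h (log2 fold change of 2.52 with an SE of 0.11, adjusted p = 8.53e-07). Smooth muscle and pericyte markers moved little, with 1 of 10 higher and 1 lower (median -0.19). These shares of 10% and 10% stand beside 26.7% and 7.02% of all genes, the lower share being near that of all genes. Cnn1, calponin, went from 2.16 ± 0.595 to 9.95 ± 2.84 FPKM (1.78), and Abcc9, a potassium channel subunit, from 111 ± 14.1 to 44.9 ± 4.51 (-1.28). Without the first 6 h mouse, or the first or second 72 h mouse, 2 were lower, and with median-of-ratios scaling or quantile normalization 4 and 3. The fibroblast list summed to 1019 to 1266 FPKM at 6 h and 4026 to 4741 at 72 h. Col1a1 and Col3a1, which the collagen list also holds, gave 18.1 to 27.8 FPKM of this sum at 6 h and 1851 to 2577 at 72 h, and the other 13 genes 1001 to 1238 and 1996 to 2175. The part of cell number in the matrix genes was not tested.

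Cell division genes moved in 1 direction. All 25 DNA replication genes were higher (median 2.15), and so were all 25 mitosis genes (median 3.65). The median 6 h level was 1.09 FPKM over the replication genes and 0.167 over the mitosis genes. Most mitosis genes were below 1 FPKM in all 6 h mice and passed the filter only through the 72 h mice. Such members could hardly be called lower, so these counts are given as a description. Top2a, which untangles DNA before division, had 0.127, 0.262 and 0.0919 FPKM at 6 h and 23.1, 38.2 and 28.8 FPKM at 72 h (log2 fold change of 4.72 with an SE of 0.17, adjusted p = 4.54e-07). Mki67, the proliferation antigen Ki-67, had 0.408, 0.191 and 0.148 FPKM at 6 h and 22, 32.2 and 28.3 FPKM at 72 h (log2 fold change of 4.50 with an SE of 0.15, adjusted p = 3.52e-07), and Ccnb2, a mitotic cyclin, had 0.132, 0.125 and 0.0373 FPKM at 6 h and 23.5, 27.6 and 25.4 FPKM at 72 h (log2 fold change of 4.59 with an SE of 0.11, adjusted p = 1.51e-07). Tpx2, a spindle protein, rose by a log2 fold change of 4.37. Of the replication genes, Tk1, thymidine kinase, had 0.157, 0.413 and 0.423 FPKM at 6 h and 15.2, 19.1 and 16.8 FPKM at 72 h (log2 fold change of 3.76 with an SE of 0.13, adjusted p = 3.52e-07), and Mcm5, of the replicative helicase, had 1.33, 1.64 and 2.09 FPKM at 6 h and 22.9, 29.3 and 22.1 FPKM at 72 h (log2 fold change of 3.26 with an SE of 0.15, adjusted p = 9.7e-07). Gins2 and Uhrf1 had log2 fold changes of 2.79 and 2.63. The 25 mitosis genes summed to 6.17 to 6.64 FPKM at 6 h, 6.25 to 8.28 in the control mice, 9.64 to 27.2 at 24 h and 319 to 434 at 72 h. The second 72 h mouse was highest in Top2a, Mki67, Tpx2 and Ccnb2. The tissue does not tell which cells carried these transcripts.

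E2F factors switch on replication genes. The sequences before 2 starts that hold the motif are shown, of the replication gene Mcm5 and of Cdk1, the mitotic kinase, the 1 gene of the mitosis list with a match, from RefSeq on GRCm38.p6. Capitals mark matches to TTTNNCGC on either strand.
Mcm5 (chr8:75109259-75109508, plus strand): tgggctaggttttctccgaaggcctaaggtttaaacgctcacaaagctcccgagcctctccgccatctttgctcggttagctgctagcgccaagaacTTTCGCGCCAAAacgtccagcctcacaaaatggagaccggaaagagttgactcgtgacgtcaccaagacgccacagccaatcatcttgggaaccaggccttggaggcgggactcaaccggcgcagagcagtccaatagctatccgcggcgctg
Cdk1 (chr10:69352913-69353062, minus strand): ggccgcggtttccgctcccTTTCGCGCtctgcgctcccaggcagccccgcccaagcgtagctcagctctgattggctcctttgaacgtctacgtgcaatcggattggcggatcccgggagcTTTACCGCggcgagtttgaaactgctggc
The Mcm5 stretch holds a pair of matches that overlap on opposite strands. In the 300-base windows, the motif was in 10 of 22 windows of 20 replication genes, in 1 of 22 windows of 20 mitosis genes, and in 8.05% of all windows. Some replication genes, such as Tk1 and Mcm2, had no match in the 250 bases before the start, nor had the mitosis genes Top2a and Ccnb1.

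**Figure D5:**
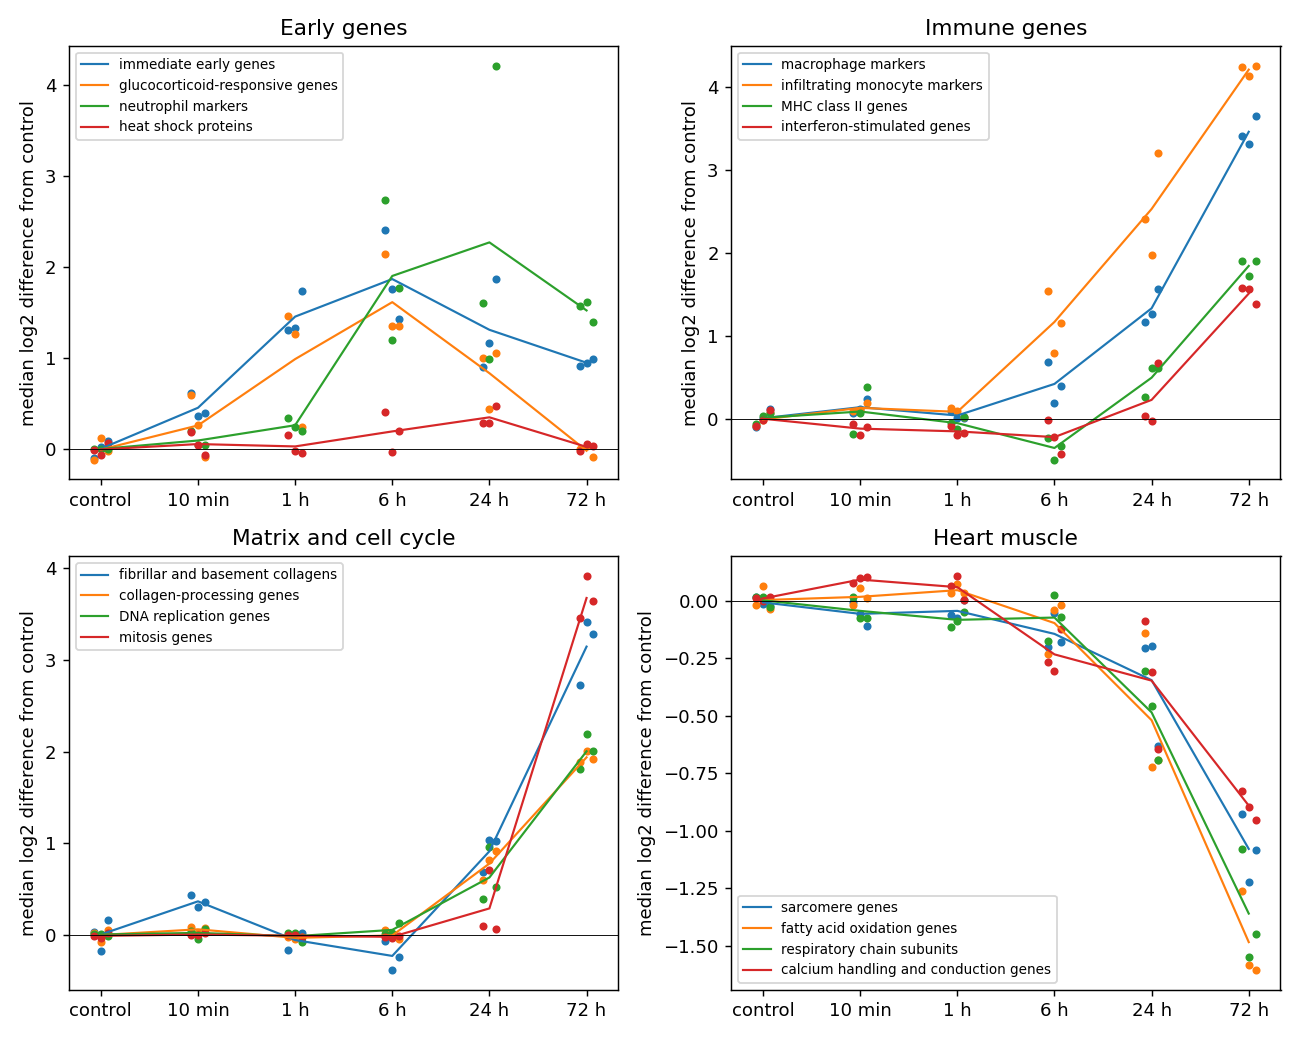
Median over the tested members of 16 gene lists of the difference of log2(FPKM + 1) from the control mean (vertical), at each time after ligation (horizontal, unequal time steps); points are single mice and lines join the means of 3 mice. Mitosis genes stand at -0.02 at 6 h and 3.67 at 72 h, macrophage markers at 0.42 and 3.46, and respiratory chain subunits at -0.07 and -1.36.

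Genes of heart muscle metabolism were lower in nearly every member. Of 25 fatty acid oxidation genes 24 were lower (median -1.41), of 23 genes of the citric acid cycle and pyruvate use 20 were lower (median -1.20), and of 30 respiratory chain subunits 29 were lower (median -1.30), against 7.02% of all genes. No member of the 3 lists was higher. Ucp3, an uncoupling protein of muscle mitochondria, had 53.7, 110.0 and 119 FPKM at 6 h and 12.9, 9.45 and 9.58 FPKM at 72 h (log2 fold change of -2.97 with an SE of 0.28, adjusted p = 4.02e-05). Eci1 and Acaa2, enzymes of beta oxidation, had log2 fold changes of -1.69 and -1.62, and Acot2 one of -1.60. Cpt1a, the liver-type carnitine palmitoyltransferase, was the 1 gene of fatty acid oxidation not called, with 18.5, 22.3 and 25.5 FPKM at 6 h and 25.2, 29.4 and 29.1 FPKM at 72 h. Pdk2, a pyruvate dehydrogenase kinase, had 99.1, 112 and 100.2 FPKM at 6 h and 42.4, 27.3 and 31.4 FPKM at 72 h (log2 fold change of -1.62 with an SE of 0.16, adjusted p = 4.37e-05). Slc2a4, the insulin-dependent glucose transporter, and Mdh2 fell by 1.42 and 1.41 on the log2 scale. Cox7a1, a muscle form of a cytochrome oxidase subunit, had 1541, 1931 and 1955 FPKM at 6 h and 506, 301 and 319 FPKM at 72 h (log2 fold change of -2.30 with an SE of 0.20, adjusted p = 2.76e-05). Cox8b and Cox6a2, also muscle forms, and Uqcrc1 had log2 fold changes of -1.90, -1.88 and -1.55. The first 72 h mouse was the highest of its group in each of Pdk2, Cox7a1, Cox8b and Cox6a2.

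Sarcomere genes, the contractile filaments, were lower in 12 of 24 and higher in none (median -1.07). Myl2 went from 9135 ± 1066 to 2877 ± 570.2 FPKM (log2 fold change of -1.68 with an SE of 0.17, adjusted p = 4.84e-05). Tcap, a protein of the Z disc, had 1357, 2089.5 and 1846 FPKM at 6 h and 515, 309 and 389 FPKM at 72 h (log2 fold change of -2.13 with an SE of 0.22, adjusted p = 5.72e-05). Myl3 and Myom2 had log2 fold changes of -1.81 and -1.69. Myh6, the main myosin heavy chain of the adult mouse heart, had 3803, 4531 and 4267 FPKM at 6 h and 1642, 1180.4 and 1307 FPKM at 72 h (log2 fold change of -1.62 with an SE of 0.15, adjusted p = 3.12e-05), and Tnnt2, cardiac troponin T, had a log2 fold change of -1.02. The call of Tnnt2 was lost with each mouse rescaled to the same sum and without the second 6 h mouse or the second or the third 72 h mouse. Of the 24 genes, 20 were called lower with median-of-ratios scaling but 8 under quantile normalization. The list summed to 64970 to 79710 FPKM at 6 h and 27780 to 35800 at 72 h, against 78300 to 83000 in the control mice. These genes, markers of cardiomyocytes, were abundant in all 6 mice, and most of them do not tell ventricle from atrium. Calcium handling and conduction genes were lower in 4 of 21 (median -0.75), 12 with median-of-ratios scaling, 11 with quantile normalization and, without the first 72 h mouse, 8 beside 1 higher. Kcnip2, a potassium channel subunit, had 50.4, 61.5 and 43.9 FPKM at 6 h and 13.9, 8.39 and 11.6 FPKM at 72 h (log2 fold change of -2.12 with an SE of 0.19, adjusted p = 2.72e-05). Hrc, Atp2a2, the calcium pump of the sarcoplasmic reticulum, and Pln, its inhibitor, had log2 fold changes of -1.94, -1.48 and -1.11. The calls of Myl2, Myl3, Myh6 and Atp2a2 were lost with quantile normalization.

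Natriuretic and stretch-response genes did not follow 1 direction, with 1 of 16 higher and 5 lower (median -0.76). The shares were 6.25% and 31.25%, beside 26.7% and 7.02% of all genes. Nppa, atrial natriuretic peptide, had 851, 606 and 254 FPKM at 6 h and 1614, 1743 and 2021 FPKM at 72 h (log2 fold change of 1.81 with an SE of 0.38, adjusted p = 0.00308). Nppa was highest in the first of the 6 h mice, the one with atrial transcripts. Ankrd2 had 55.6, 65.7 and 19.2 FPKM at 6 h and 2.73, 2.47 and 2.24 FPKM at 72 h (log2 fold change of -3.61 with an SE of 0.39, adjusted p = 8.07e-05), and Xirp1 had 89.7, 45.9 and 26.1 FPKM at 6 h and 8.17, 7.78 and 7.61 FPKM at 72 h (log2 fold change of -2.46 with an SE of 0.36, adjusted p = 0.000463). Flnc and Rrad had log2 fold changes of -2.16 and -1.46. The third 6 h mouse had the lowest value of Nppa, Ankrd2, Xirp1 and Flnc, and without it 8 were lower. Without the second 6 h mouse 2 were higher, and with median-of-ratios scaling 10 were lower. Hypoxia and glycolysis genes were higher in 5 of 26 and lower in 3 (median -0.24), shares of 19.2% and 11.5% beside 26.7% and 7.02% of all genes. Eno1 had 137, 123 and 128 FPKM at 6 h and 303, 355 and 323 FPKM at 72 h (log2 fold change of 1.33 with an SE of 0.10, adjusted p = 1.11e-05), and Pgam1, Pfkfb4 and Car9 had log2 fold changes of 1.25, 1.43 and 1.12. The lower genes were Bnip3 (-1.33), the glucose transporter Slc2a1 (-1.31) and adrenomedullin, Adm (-1.08). Without the second 6 h mouse 5 were lower, and with median-of-ratios scaling 2 were higher and 9 lower (4 and 7 under quantile normalization), Eno1 and Pgam1 no longer being called.

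Endothelial markers split, with 7 of 22 lower and 2 higher (median -0.41), shares of 31.8% and 9.09% beside 7.02% and 26.7% of all genes. Car4, a carbonic anhydrase of capillaries, had 44.2, 59.5 and 38.2 FPKM at 6 h and 4.0, 3.36 and 3.68 FPKM at 72 h (log2 fold change of -3.34 with an SE of 0.16, adjusted p = 1.2e-06). Aqp1, a water channel, had 478, 398 and 429 FPKM at 6 h and 101, 72.2 and 76.0 FPKM at 72 h (log2 fold change of -2.39 with an SE of 0.14, adjusted p = 3.57e-06). Rgcc and Flt1 fell by 2.26 and 1.70 on the log2 scale. The defining markers Pecam1 and Cdh5 were not called, with 309.7, 233 and 236 and 136, 102 and 92.8 FPKM at 6 h and 177, 227 and 179 and 75.1, 104 and 70.9 at 72 h. Aplnr, the receptor for apelin, had 2.13, 2.13 and 2.51 FPKM at 6 h and 23.1, 32.6 and 25.1 FPKM at 72 h (log2 fold change of 3.09 with an SE of 0.14, adjusted p = 9.43e-07), and its control level was 14.2 ± 2.73 FPKM, so that its 6 h level was low against the control mice. Plvap, of fenestrated and leaky vessels, had 2.79, 2.97 and 2.32 FPKM at 6 h and 14.6, 17.5 and 17.5 FPKM at 72 h (log2 fold change of 2.25 with an SE of 0.12, adjusted p = 1.84e-06). Only part of the list thus moved, and in both directions.

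Epicardial and mesothelial markers were higher in 9 of 10 (median 1.36), 6 under median-of-ratios scaling and 4 under quantile normalization. Upk3b had 0.155, 0.174 and 1.88 FPKM at 6 h and 15.6, 2.76 and 3.89 FPKM at 72 h (log2 fold change of 2.1 with an SE of 0.56, adjusted p = 0.0105), and Msln, mesothelin, had 2.96, 3.24 and 10.9 FPKM at 6 h and 43.1, 14.7 and 17.5 FPKM at 72 h (log2 fold change of 2.0 with an SE of 0.49, adjusted p = 0.00688). The first 72 h mouse and the third 6 h mouse were the highest of their groups in both. Upk1b and Krt18 had log2 fold changes of 2.01 and 1.62. Without the third 6 h or the first 72 h mouse, 1 was lower. Erythroid markers, from blood in the tissue, were lower in 3 of 5 (median -0.73). Hba-a2 had 2929.9, 3981 and 1721 FPKM at 6 h and 1271, 857 and 1196 FPKM at 72 h (log2 fold change of -1.31 with an SE of 0.29, adjusted p = 0.00419), a call lost under quantile normalization, Hba-a1 and Alas2 overlapped between the times, each losing its call without any of 4 single mice, and Hbb-bs had 60.1, 2370.3 and 1237 FPKM at 6 h and 920.2, 605 and 883 FPKM at 72 h and was not called. Without the third 72 h mouse 1 was lower.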

How the data were processed

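RNA-seq libraries were made from polyA RNA of the left ventricle of 18 mice, 3 per group, in 6 groups. Per the methods, adapters were removed by the authors with cutadapt 1.18, HISAT2 2.1.0 aligned the reads on mm10, and StringTie 1.3.4d gave the expression values. The deposited values are FPKM per gene symbol, 1 column for each mouse, and the authors' annotation is not given in the sources used here. FPKM correct for transcript length and for the total of each library, so that a few very abundant genes lower the values of all others. No count test could be run, and the cufflinks comparison of the authors needs the reads.

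Columns were matched to the sample titles. The header of the second 6 h mouse holds an n in place of the h of its title, and those at 1 h an l in place of the 1. Of the 24419 symbols, 11372 were below the filter and 5675 were listed at 0 in all 6 mice compared. Dates stood in place of 25 symbols, 19 of them tested and none named. FPKM were used as deposited, as log2(FPKM + 1), with limma 3.58.1 in R 4.3.3 (lmFit, and eBayes with a variance trend), with the 6 mice alone, two-sided, with Benjamini-Hochberg adjustment over the 13047 genes. A log2 fold change is a difference of mean log2(FPKM + 1), which understates changes of low genes, and SE is its standard error. Nothing in the labels says whether mice shared a litter or a day, so that p-values measure the spread between these mice. The fit was tested on simulated data.

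The genes and the 35 lists were chosen with earlier results of these data known. Genes named were the 12 largest rises and 12 largest falls among called genes with no overlap between the times, without predicted genes, and of each list up to 4 called genes with the largest rise and 4 with the largest fall, and those against most of their list. C1qa, Acta2, Fn1, Myh6, Tnnt2, Il6, Fos, Ccl12 and the uncalled genes named were chosen after their values were seen. Some genes the rule selects are not reported here. Promoter windows came from RefSeq on GRCm38.p6, and gene positions from GENCODE release M21 on mm10, the same assembly. Python 3.11.15, pandas 2.3.3, numpy 2.4.6 and matplotlib 3.10.9 were used for the rest. Alternatives were a pseudocount of 0.1, other filters, 3 scalings, all 18 mice in one fit, a replicate block, no variance trend and each mouse left out, and counts of list members by mouse left out or scaling were added after seeing the data.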

Additional observations from a re-analysis of the deposited data

How the results depend on the processing

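The 3481 higher and 916 lower genes were within 1.5 times these counts under 29 of 34 alternatives. The exceptions were quantile normalization (1895 higher and 1937 lower), median-of-ratios scaling (1742 lower) and an adjusted p under 0.05 at any ratio (6695 and 2213). With 1 mouse left out, 3389 to 3626 genes were higher and 837 to 998 lower. Replicate numbers were not taken as pairs, since the deviations of mice with the same number had correlations of -0.216, -0.330 and -0.161, and a replicate block gave 3471 and 913. No called gene named changed sign under any alternative run. Some uncalled genes did, with Cd163 and Timd4 left out here. Under median-of-ratios scaling Cd14 changed sign to -0.413, Nlrp3 to -0.137, Cpt1a to -0.078 and Col4a2 to -0.073 (log2 fold changes). Under quantile normalization Cd14 changed sign to -0.238, Nlrp3 to -0.429 and Casp4 to -0.051. With 1 mouse left out, Cd14 ran from -0.634 (without the second 6 h mouse) to 0.725 (without the first), and was -0.090 without the third 6 h and -0.012 without the second 72 h mouse. Nlrp3 ran from -0.195 to 0.611, with the same mice left out at its ends. Without the first 6 h mouse Hbb-bs was at -1.116 (limma, adjusted p = 0.00936) and at most 1.523 otherwise, Myl7 was at 0.316 and at least -1.832 otherwise, and Myl4 was at 0.248 and at least -2.030 otherwise. The median of the metallothioneins and antioxidant genes ran from -0.376 to 0.088, and that of the cytokines and CXC chemokines from -0.478 to 0.077, each highest without the first 6 h mouse, and the latter was 0.024 where genes had to reach a mean of 1 FPKM. The causes were not tested. Depth is not known in reads, so that low FPKM have an unknown counting error.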
